A study of Rattus norvegicus with 12 samples.

Results

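Interleukins and interleukin receptors were followed through gene expression arrays of rat cervix. The members were all probes for genes, with control spots left out, whose name in the array files began with Il directly followed by a digit. This rule found 84 of 30367 probes, which stood for 74 of 26612 genes, and it used no measured value. Where RefSeq has changed a name since the array was designed, the current name is used, so that the chemokine receptors once called Il8ra and Il8rb stand as Cxcr1 and Cxcr2 and some IL-1 family members as Il36a, Il36b, Il36g and Il36rn. RNA came from cells dispersed with collagenase from the cervix of 12 adult female Sprague Dawley rats, 3 in each of 4 groups, with 1 rat on each array. The D21 rats were on day 21 after breeding, typically the day before birth, and the nonpregnant (NP) rats were in proestrus. Whole cervix of D21 rats (rats 5, 6 and 7) and of NP rats (rats 8, 9 and 10) was compared with macrophage (Mφ)-depleted cervix of other D21 rats (rats 1, 2 and 4) and other NP rats (rats 5, 6 and 7). All rats were perfused before the cervix was removed. Mφs were taken out of the depleted suspensions with the ED1 antibody and magnetic beads, whereas whole suspensions were frozen without the bead steps, so removal of Mφs and the added handling cannot be told apart. The comparisons asked which interleukin genes differ between the cervix before term and the nonpregnant cervix, and which differ when Mφs are removed.

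Interleukins are secreted proteins through which immune cells, epithelium and stroma signal to each other. Members of the IL-1 family act through receptors that recruit the adaptor MyD88, and soluble decoys and a natural antagonist hold them in check. IL-6, IL-11 and related cytokines use gp130, and most other interleukins use paired receptor chains that activate Janus kinases and STAT factors. In the cervix, interleukins are best known for their part in the leukocyte influx and matrix remodelling around birth.

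The probes behind the main differences are shown because each array value is the signal of a single sequence of 60 bases. Positions follow the annotation in the scanner files (rn4 build), and each sequence is printed 5′ to 3′ in lower case. They belong to 2 secreted ligands that differed between D21 and NP whole cervix in opposite directions (Il11 and Il12a), to the ligand Il18, to the decoy receptor Il13ra2 and to the cytokine receptor Il21r.
Il11 (chr1:67788418-67788477, plus strand): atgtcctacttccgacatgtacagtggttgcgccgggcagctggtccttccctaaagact
Il12a (chr2:158714677-158714736, plus strand): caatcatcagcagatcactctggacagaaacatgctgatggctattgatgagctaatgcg
Il18 (chr8:53943005-53943064, plus strand): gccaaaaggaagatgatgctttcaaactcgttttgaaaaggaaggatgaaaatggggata
Il13ra2 (chrX:30506824-30506883, minus strand): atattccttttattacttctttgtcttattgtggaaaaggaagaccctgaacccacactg
Il21r (chr1:184692673-184692732, plus strand): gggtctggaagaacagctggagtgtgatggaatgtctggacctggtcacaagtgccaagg

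The promoter of Il11 is shown because this ligand was higher in D21 than in NP cervix both with and without Mφs. The sequence is from RefSeq (GRCr8, chr1:78098372-78098671, plus strand), runs from 250 bases before to 50 bases after the start of the gene, and has its AP-1 motif in capitals.
Il11 promoter: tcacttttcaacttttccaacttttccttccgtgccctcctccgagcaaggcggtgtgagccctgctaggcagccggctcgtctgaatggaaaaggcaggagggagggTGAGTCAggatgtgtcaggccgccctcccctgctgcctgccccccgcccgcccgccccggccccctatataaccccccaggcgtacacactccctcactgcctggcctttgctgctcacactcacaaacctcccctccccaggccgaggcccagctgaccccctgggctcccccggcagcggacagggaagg
RefSeq promoters of the same length were found for 56 member genes (59 promoters). The AP-1 letters TGAGTCA, on either strand, stood in 4 of the 59 (Il11, Il16, Il1a and Il9) and in 4.63% of 33469 rat promoters. The STAT motif TTCNNNGAA stood in 7 of 59 and in 8.87% of all promoters, and the CRE TGACGTCA in 2 (Il21r and Il6) and in 1.83%. These matches describe the letters in the window and not binding.

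Values are the log2 of the intensity of a probe minus the log2 of the 75th percentile intensity of its array, so that 0 is the 75th percentile. Whether a probe was well above background is a rating by the software of the scanner, and 44.9% to 61.8% of probes had it on any 1 array. The arrays with the lowest shares were those of NP depleted rat 7 (44.9%), NP whole rat 8 (48.3%) and D21 depleted rat 4 (51.0%), all on slide 3. The hybridizations were spread over 4 slides and 3 scanning days, and no slide held both D21 whole and D21 depleted arrays. All whole arrays were scanned on day 3, with the depleted arrays of NP rat 7 and D21 rat 4. The other depleted arrays were scanned on day 1 (NP rats 5 and 6 and D21 rat 2) or day 2 (D21 rat 1). Scan day therefore largely followed Mφ removal, and the 2 cannot be fully told apart. Levels of marker lists are given with the results as the log2 of the summed signal of the list. Nothing in the labels gave more than 1 sample of a rat, and 3 rats in a group limit the precision of every value.

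Of the 74 genes, 15 were well above background on all 12 arrays, 32 on some arrays and 27 on none. The 15 were the ligands Il17b, Il17d, Il33 (a nuclear alarmin of barrier cells) and Il34 (a ligand of the Mφ growth factor receptor), the inhibitors Il1rn and Il18bp, and the receptor chains Il2rg, Il3ra, Il4r, Il6r, Il10rb, Il11ra1, Il13ra1, Il17ra and Il17re. The 27 that were well above background on no array included the T cell cytokines Il2, Il4, Il5, Il13, Il17f, Il21 and Il22, the growth factors Il3 and Il7, and the receptor chains Il2ra, Il7r, Il12rb1, Il18r1 and Il18rap. For these genes only an upper bound on the level was available. To be tested between a pair of groups, a gene had to be well above background in all 3 rats of one or the other, and 33 of the 74 genes reached this in at least 1 group. This filter favours genes that differ, since some passed only through the group in which they were high, so counts of members are given as a description.

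**Figure D1:**
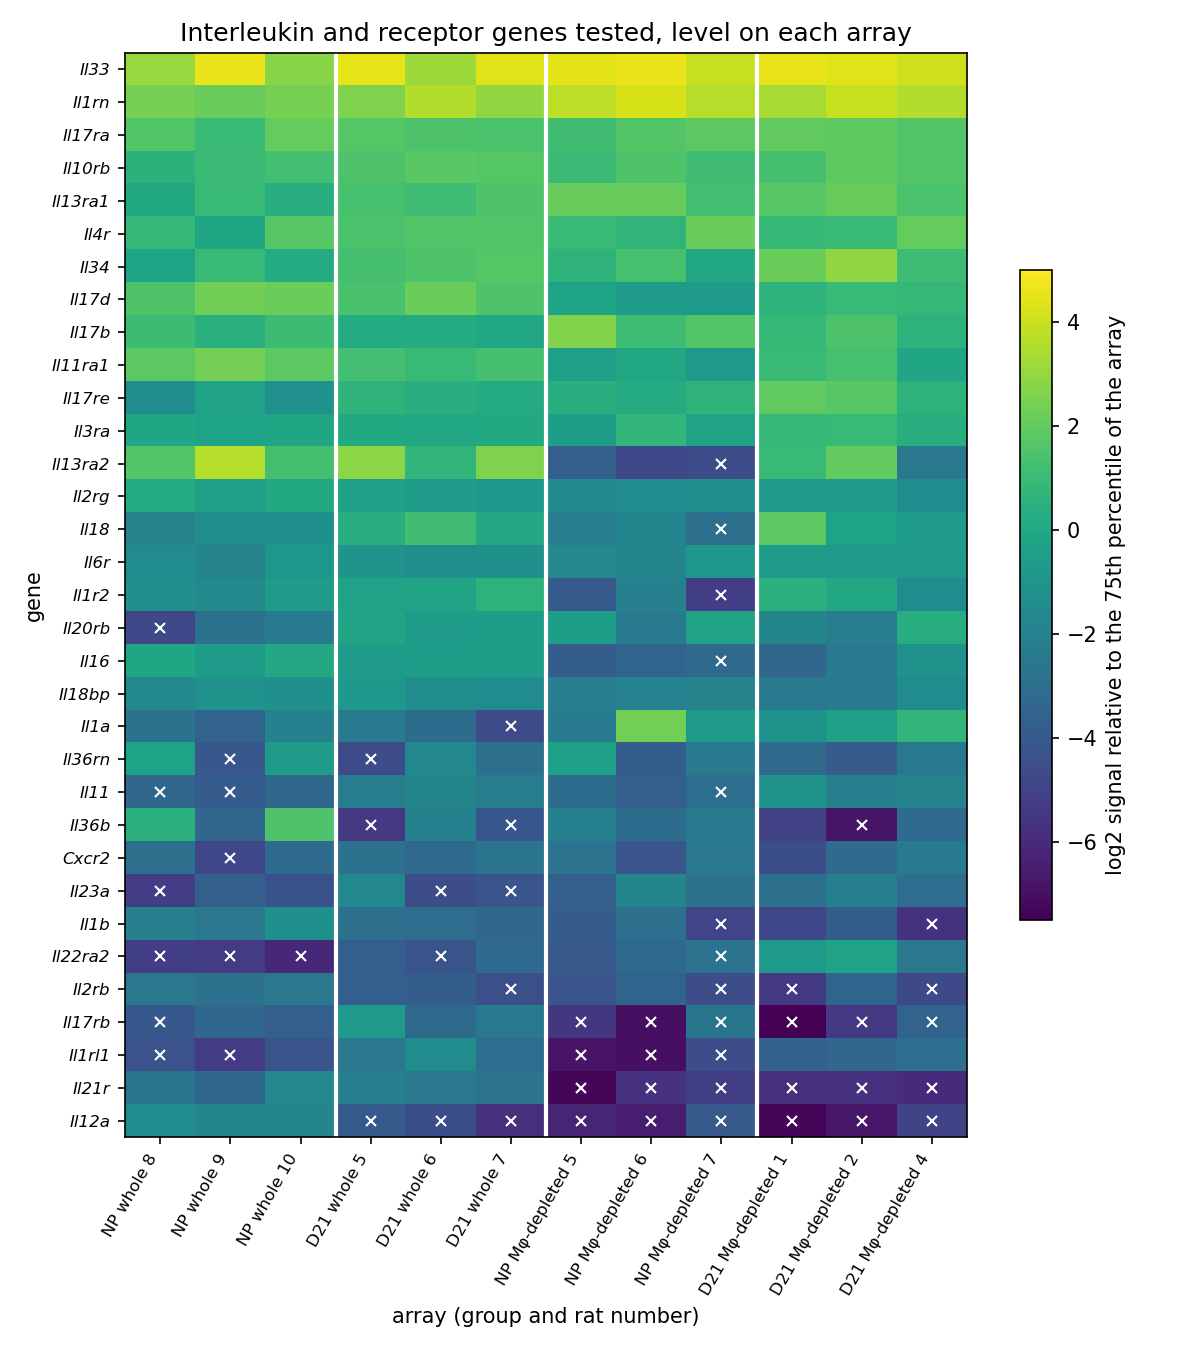
Log2 signal (colour scale, 0 = 75th percentile of the array) of the 33 tested genes (rows, ordered by mean signal) on the 12 arrays (columns, by group and rat number). White crosses mark arrays on which the probe was not well above background. Colours compare arrays within a row, since signals of different probes are not comparable. Il12a is bright on the NP whole arrays, and Il13ra2, Il1r2 and Il17d are dimmest on the NP depleted arrays.

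Between D21 and NP whole cervix, 7 of 30 tested genes differed by at least 2-fold with an unadjusted p below 0.01, 5 higher and 2 lower in D21. Over all genes, 8.48% passed this threshold, 5.38% higher and 3.1% lower. The genes higher in D21 were the ligands Il11 and Il18 and the receptor genes Il17re, Il1rl1 and Il20rb, and those lower were Il12a and Il2rb. After Benjamini-Hochberg adjustment in limma at 0.05, Il11 and Il12a passed, against 5.81% of all genes. The median difference of the 30 genes was 0.23, beside -0.08 for all genes tested. The groups did not overlap for 17 of the 30, and for 44.2% of all genes. In bulk samples, fewer cells of a type and less RNA per cell cannot be told apart.

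Among the ligands, Il11, a cytokine of the gp130 family known from decidualization, gave -2.18, -1.80 and -2.24 in D21 whole cervix and -3.36, -3.87 and -3.27 in NP whole cervix. All 3 D21 rats lay above all 3 NP rats, and only 1 of the NP arrays was well above background. The difference was 1.43 ± 0.31 (SE) on the log2 scale (limma, adjusted p = 0.0262). Il18, an IL-1 family cytokine that caspase-1 cuts into its active form, was 0.33, 1.16 and 0.04 in D21 and -1.91, -1.29 and -1.22 in NP whole cervix. The groups did not overlap, and Il18 was 3.96-fold higher in D21 (log2 difference 1.99 ± 0.57, adjusted p = 0.0641). Il12a, the p35 chain shared by IL-12 and IL-35, went the other way, with -3.97, -4.50 and -5.75 in D21 and -1.44, -1.80 and -1.81 in NP whole cervix. It was well above background on all 3 NP whole arrays and on none of the other 9 arrays. Its level was at least 5.77-fold lower in D21 (log2 difference -3.06 ± 0.74, adjusted p = 0.0374), where the bound uses the dimmest signal rated well above background on each dim array. The partner chain of IL-12, Il12b, did not reach that rating on any array.

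Among the receptors, Il20rb, a chain of the receptors for IL-19, IL-20 and IL-24, showed the widest difference, with -0.19, -0.58 and -0.53 in D21 and -4.78, -2.84 and -2.39 in NP whole cervix. The NP rats spread widely, but each lay below every D21 rat (log2 difference 2.90 ± 0.77, 7.48-fold, adjusted p = 0.0507). Of the 3 NP arrays, 2 were well above background for Il20rb. Il1rl1, the IL-33 receptor also called ST2, was -2.56, -1.44 and -3.04 in D21 and -4.29, -5.33 and -4.28 in NP whole cervix. It was well above background in all 3 D21 rats and in 1 NP rat, and was higher in D21 (log2 difference 2.29 ± 0.62, adjusted p = 0.0558). Il17re, a chain of the receptor for the epithelial cytokine IL-17C, was 0.61, 0.41 and 0.19 in D21 and -1.36, -0.29 and -1.20 in NP whole cervix. All D21 rats were higher, by 2.55-fold on average (log2 difference 1.35 ± 0.38, adjusted p = 0.0626). Il2rb, the signalling chain shared by the IL-2 and IL-15 receptors, was -3.78, -3.80 and -4.46 in D21 and -2.51, -2.79 and -2.54 in NP whole cervix. It was 2.64-fold lower in D21 (log2 difference -1.40 ± 0.44, adjusted p = 0.0864), where 2 of 3 arrays were well above background.

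**Figure D2:**
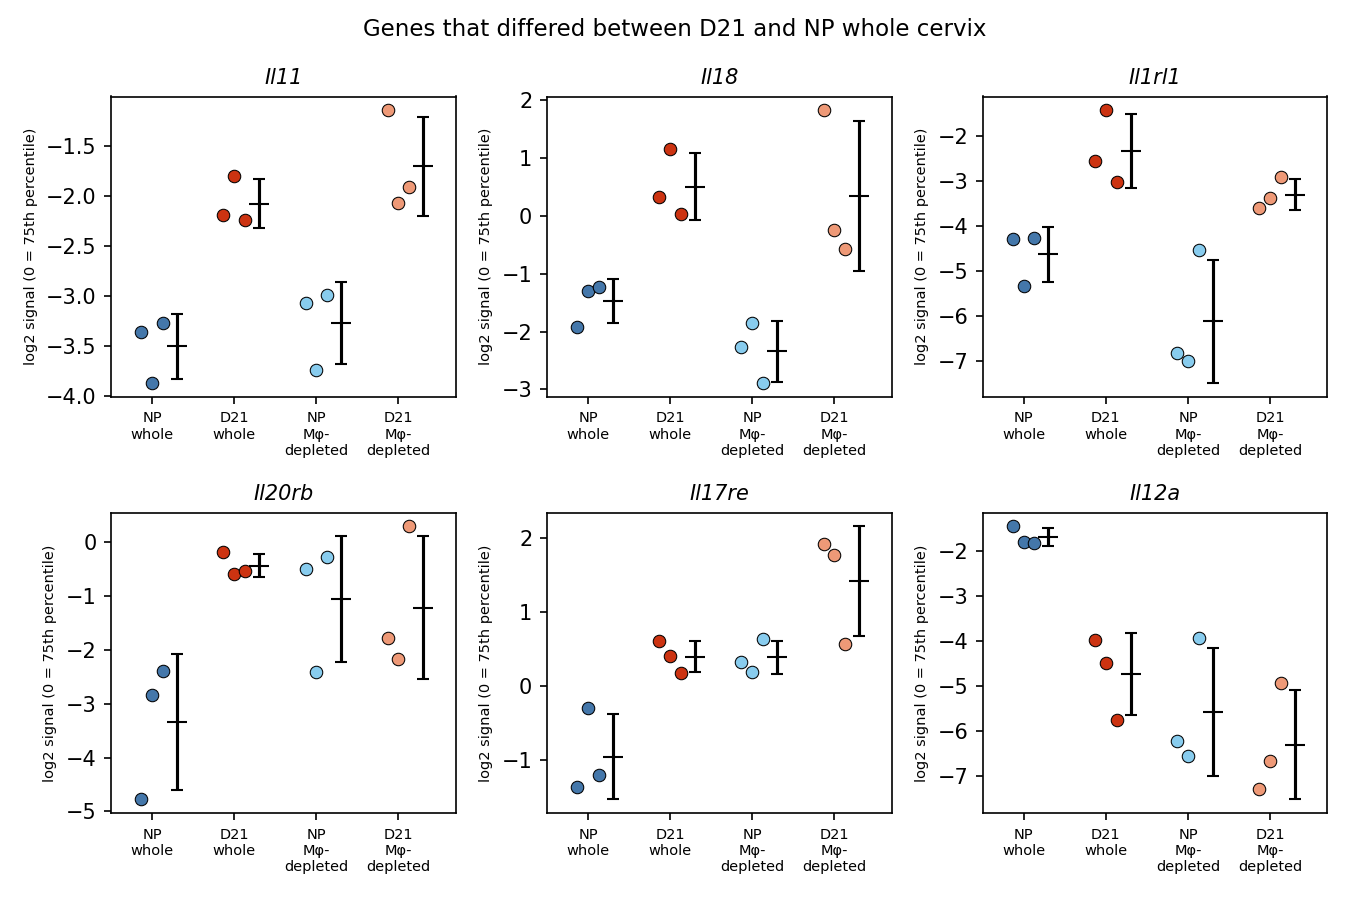
Log2 signal (vertical axis, 0 = 75th percentile of the array) of Il11, Il18, Il1rl1, Il20rb, Il17re and Il12a by group. Each point is 1 rat, and the bar beside the points is the mean with SD (n = 3). In whole cervix, the D21 points of the first 5 genes lie above the NP points, and Il12a shows the reverse, with NP whole means of -3.50 for Il11 and -1.68 for Il12a.

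These calls rested on few rats. Without NP rat 8 or without D21 rat 5, 3 of the 7 calls were made. Il2rb passed in none of the 6 fits that left out 1 rat (log2 difference -1.52 to -1.17), Il17re failed in 4 of 6 (1.15 to 1.35) and Il18 in 4 of 6 (1.66 to 2.08). Il1rl1 failed without NP rat 9 (1.94) or D21 rat 6 (1.83), and Il20rb without NP rat 8 (2.18) or D21 rat 5 (2.78), while Il11 and Il12a passed in each of these fits. On slide 4, which held all 3 D21 arrays and NP rat 10, the differences were 1.19 for Il11, 1.73 for Il18, 1.95 for Il20rb, 1.93 for Il1rl1, 1.60 for Il17re, -2.93 for Il12a and -1.47 for Il2rb. Their signs could not have changed, because the groups did not overlap for any of these genes. The fit with slide as a block could compare the D21 arrays only with NP rat 10, so it gave these same differences. In that fit Il11, Il1rl1, Il20rb and Il17re no longer passed. With normexp background correction, Il12a differed by -0.45, Il2rb by -0.11, Il11 by 0.83, Il1rl1 by 1.17 and Il17re by 1.02, and none of these 5 passed. Of the 7 genes, the methods' t-test called Il11 alone. The split was 5 higher and 1 lower with quantile normalization and with the normalized values that the authors deposited. Of the epithelial markers, 7 of 9 tested were also higher in D21 whole cervix (median log2 difference 1.66), and their summed log2 level was 7.91 to 8.60 in D21 and 6.94 to 8.63 in NP whole cervix. Of the smooth muscle markers, 4 of 10 were lower in D21 (8.27 to 8.74 in D21 and 8.84 to 9.50 in NP whole cervix), and of the immediate-early genes 2 of 10 were higher (4.92 to 5.01 and 3.88 to 4.33). The part of these lists in the interleukin differences was not tested.

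The array held 2 probes for Il1rl1, named in the files for transcript variants 1 and 2 of a gene that makes a membrane and a secreted receptor. The probe for variant 1 (chr9:39617225-39617284) gave the values above. The probe for variant 2 lies downstream and spans chr9:39619275-39620742, more than its own 60 bases. Its sequence is shown because it is the part of the array that did not detect Il1rl1.
Il1rl1 variant 2 probe: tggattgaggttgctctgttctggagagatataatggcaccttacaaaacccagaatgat
None of the 12 arrays rated it well above background, with means from -6.80 ± 0.84 (SD, n = 3) in D21 depleted to -5.08 ± 0.66 in D21 whole cervix. The increase in Il1rl1 therefore describes the signal of the variant 1 probe, and over the mean of both probes the difference between D21 and NP whole cervix was 1.23 and did not pass. Whether the membrane or the secreted receptor rose was not tested. Il13ra1, the chain that joins Il4r to bind IL-4 and IL-13, also had 2 probes that differed in their calls. The array annotation places both on chromosome 11, whereas RefSeq places the gene on X, so what these probes measure is less certain. Its brighter probe averaged 1.34 ± 0.22 in D21 and 0.49 ± 0.44 in NP whole cervix (SD, n = 3) and was not called, whereas the dimmer probe was 1.07 higher in D21 (adjusted p = 0.0864, limma on all probes).

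Removal of Mφs from NP cervix went with the most changes among the members. Of 29 tested genes, 13 passed the threshold, 10 higher in whole and 3 higher in depleted cervix, where 24.4% of all genes passed (13.6% higher and 10.8% lower in whole cervix). The genes higher in whole cervix were the ligands Il1b, Il12a, Il16 and Il17d, the decoy receptors Il13ra2 and Il1r2, and the receptor chains Il11ra1, Il21r, Il2rb and Il2rg. Those higher in depleted cervix were Il1rn, Il17re and Il13ra1. All 13 and Il20rb also passed adjustment at 0.05, as did 32.8% of all genes. The median difference of the 29 genes was -0.00, beside -0.04 for all genes. The groups did not overlap for 15 of the 29, and for 46.9% of all genes. With quantile normalization, the split was 7 higher and 4 lower in whole cervix.

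Of the ligands, Il16, a chemoattractant for cells that carry CD4, was -0.12, -0.60 and 0.03 in NP whole and -3.79, -3.46 and -3.16 in NP depleted cervix. The groups lay far apart compared with the spread of the rats in each (log2 difference 3.24 ± 0.44, 9.43-fold, adjusted p = 0.000247). Of the 3 depleted arrays, 2 were well above background for Il16. Il17d, a member of the IL-17 family made by many tissues, was 1.57, 2.28 and 2.16 in whole and -0.23, -0.63 and -0.57 in depleted cervix. It was 5.57-fold higher in whole cervix (2.48 ± 0.27, adjusted p = 6.12e-05), the smallest p-value of the members in this comparison. Il12a, at the whole cervix levels given above, was -6.22, -6.57 and -3.94 in depleted cervix, where no array was well above background. Whole cervix exceeded depleted cervix at least 6.85-fold (3.90 ± 0.74, adjusted p = 0.00226). Il1b, the central proinflammatory member of the IL-1 family, averaged -1.94 ± 0.66 in whole and -3.87 ± 1.00 in depleted cervix (SD, n = 3; difference 1.93 ± 0.56 (SE), adjusted p = 0.0215).

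The decoy receptors showed wide differences. Il13ra2, which binds IL-13 with high affinity, was 1.68, 3.62 and 1.32 in NP whole and -3.71, -4.84 and -4.61 in NP depleted cervix. Every whole sample was above the 75th percentile of its array and every depleted sample far below it (log2 difference 6.59 ± 1.03, 96.4-fold, adjusted p = 0.000624). Only 2 of the 3 depleted arrays were well above background, which makes the fold imprecise. Across the alternatives the log2 difference ran from 4.86 to 8.45. Il1r2, the decoy receptor for IL-1, was -1.21, -1.52 and -0.59 in whole and -3.95, -2.04 and -5.20 in depleted cervix. The depleted rats spread widely and lay below the whole rats (2.63 ± 0.70, 6.18-fold, adjusted p = 0.0148). Here too, 2 of the 3 depleted arrays were well above background.

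Of the signalling receptor chains, Il11ra1, which binds IL-11, was 1.84, 2.38 and 1.87 in NP whole and -0.45, 0.02 and -0.77 in NP depleted cervix (2.43 ± 0.36, 5.39-fold, adjusted p = 0.000439). Its groups did not overlap, and all 6 arrays were well above background. Il21r, the IL-21 receptor of lymphocytes and myeloid cells, was -2.67, -3.32 and -1.68 in whole and -7.26, -5.73 and -5.19 in depleted cervix. No depleted array was well above background for Il21r, so whole cervix was at least 3.73-fold higher (3.50 ± 0.51, adjusted p = 0.000397). Il2rg, the chain common to the receptors for IL-2, IL-4, IL-7, IL-9, IL-15 and IL-21, averaged -0.02 ± 0.30 in whole and -1.38 ± 0.15 in depleted cervix (SD, n = 3; difference 1.37 ± 0.27 (SE), adjusted p = 0.00296). Il2rb averaged -2.61 ± 0.15 in whole and -4.07 ± 0.54 in depleted cervix (SD, n = 3; difference 1.46 ± 0.44 (SE), adjusted p = 0.0253).

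In the other direction, Il1rn, the antagonist that blocks the IL-1 receptor, was 2.45, 2.14 and 2.43 in NP whole and 3.77, 4.27 and 3.60 in NP depleted cervix. Each depleted rat was above each whole rat (-1.54 ± 0.29, 2.90-fold lower in whole cervix, adjusted p = 0.00225). Il17re averaged -0.95 ± 0.58 in whole and 0.39 ± 0.22 in depleted cervix (SD, n = 3; difference -1.34 ± 0.38 (SE), adjusted p = 0.0195). The brighter probe of Il13ra1 averaged 0.49 ± 0.44 and 1.80 ± 0.52 (difference -1.31 ± 0.32 (SE), adjusted p = 0.00875), but the dimmer probe differed by -0.72 and was not called.

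**Figure D3:**
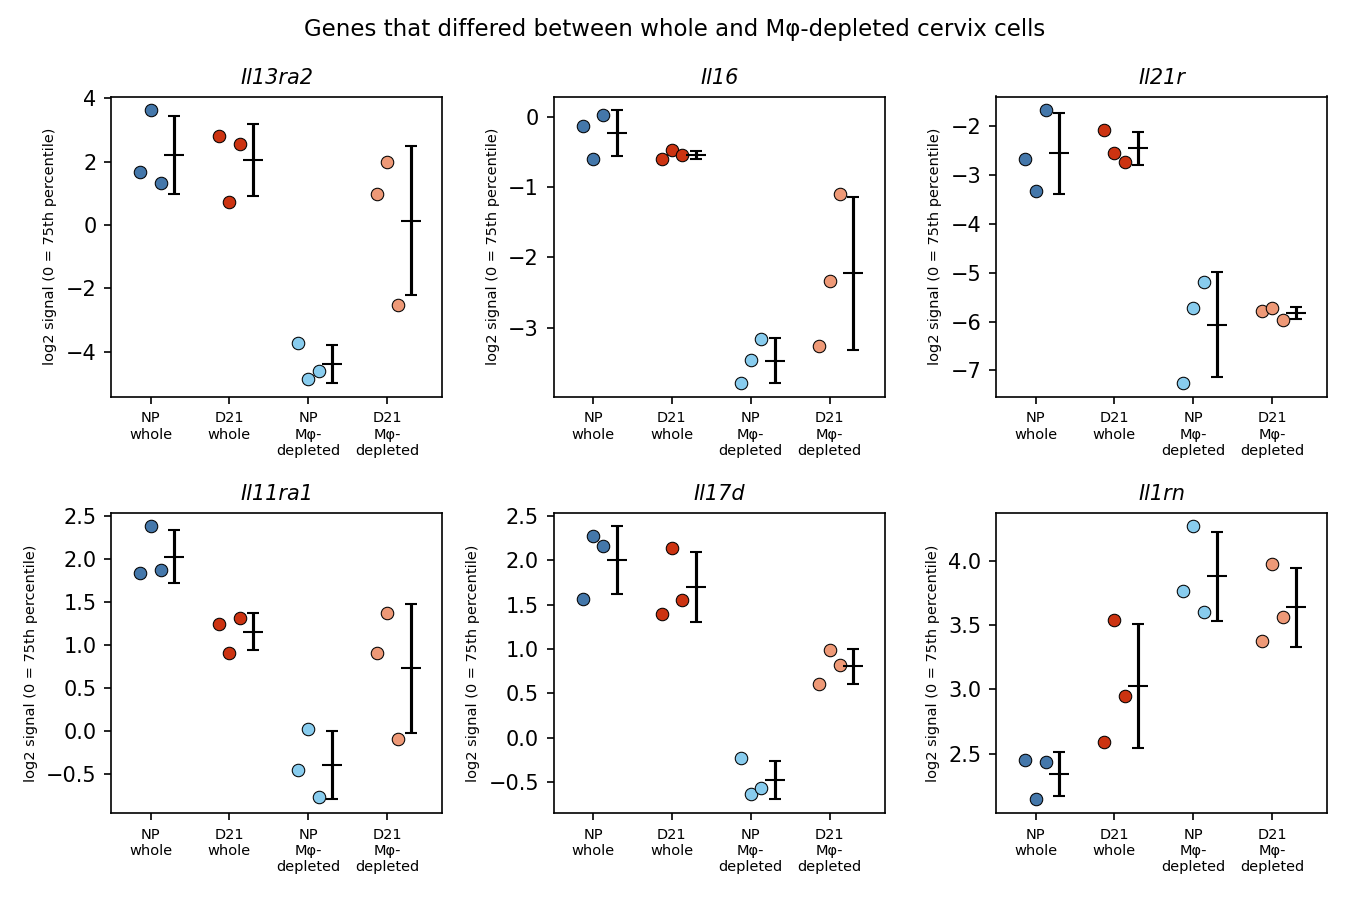
Log2 signal (vertical axis, 0 = 75th percentile of the array) of Il13ra2, Il16, Il21r, Il11ra1, Il17d and Il1rn by group. Each point is 1 rat, and the bar beside the points is the mean with SD (n = 3). NP depleted points lie below NP whole points for the first 5 genes and above them for Il1rn, with NP means of 2.21 in whole and -4.39 in depleted cervix for Il13ra2.

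Of these 13 genes, Il11ra1, Il16 and Il17d passed under every alternative in which they were tested, and Il13ra2, Il1rn and Il2rg under all but the methods' t-test after adjustment. With normexp background correction, the calls of Il12a (1.48), Il21r (1.57), Il13ra1 (-1.09), Il1b (1.04) and Il2rb (0.74) were lost, and the methods' t-test did not call Il12a, Il21r, Il13ra1, Il17re, Il1b, Il1r2 or Il2rb. On leaving out 1 rat, Il2rb failed in 5 of 6 fits (1.24 to 1.55), Il17re in 4 (-1.37 to -1.14), Il1b in 4 (1.42 to 1.99) and Il1r2 in 3 (1.89 to 2.52). These included the fits without NP depleted rat 7, whose array was the dimmest. Slide 3 held whole rats 8 and 9 and depleted rat 7. The differences within it were Il13ra2 7.26, Il16 2.79, Il17d 2.49, Il11ra1 2.88, Il12a 2.32, Il21r 2.19, Il1r2 3.84, Il1b 2.59, Il2rb 1.88, Il2rg 1.14, Il1rn -1.31, Il17re -1.46 and Il13ra1 -0.66. Their signs were fixed in advance, since the groups did not overlap for any of these 13 genes. With slide as a block, Il13ra1 (-0.74) and Il17re (-1.01) no longer passed. Both calls were also lost with scan day as a block. NP depleted rats 5 and 6 were scanned on another day than the whole rats.

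Removal of Mφs from D21 cervix went with 3 calls among 30 tested genes, below the 17.7% of all genes that passed. Il21r and Il16 were higher in whole cervix, where 10% of all genes were, and Il22ra2 was higher in depleted cervix, as were 7.71% of all genes. At an adjusted p below 0.05, 5 members passed, beside 22.4% of all genes. These were the 3 genes, Il17d and Il1a. The median difference of the 30 genes was 0.15, beside -0.06 for all genes. The groups did not overlap for 11 of the 30, and for 44.4% of all genes. With quantile normalization, and with the authors' normalized values, the split was 2 higher and 2 lower.

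The values of Il21r were -2.08, -2.56 and -2.73 in D21 whole and -5.79, -5.73 and -5.97 in D21 depleted cervix. As in NP cervix, all whole and no depleted arrays were well above background, and whole cervix was at least 4.87-fold higher (log2 difference 3.37 ± 0.51, adjusted p = 0.00185). Il16 was -0.59, -0.48 and -0.54 in whole and -3.26, -2.33 and -1.09 in depleted cervix. All whole rats were higher (1.69 ± 0.44, 3.23-fold, adjusted p = 0.0229), but the depleted rats were spread over more than 2 log2 units, and without D21 depleted rat 1 the call was lost (1.17). Il22ra2, a soluble receptor that binds and blocks IL-22, was -3.77, -4.24 and -3.23 in whole and -0.81, -0.30 and -2.53 in depleted cervix. It was 5.81-fold higher after depletion (-2.54 ± 0.55, adjusted p = 0.0103), and 2 of the 3 whole arrays were well above background.

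Il1a, the IL-1 ligand that epithelial cells store, was -2.33, -3.10 and -4.67 in D21 whole and -1.15, -0.34 and 0.71 in D21 depleted cervix. The depleted rats were all higher (-3.11 ± 1.02, adjusted p = 0.0486), but the unadjusted p-value missed 0.01. In NP cervix, Il1a was -2.82, -3.54 and -1.99 in whole and -2.36, 2.33 and -0.67 in depleted cervix, which overlapped (-2.55 ± 1.02, adjusted p = 0.0756). Il17rb, a chain of the IL-25 receptor, was well above background on all D21 whole arrays and on no depleted array, a gap of at least 5.85-fold, but missed the threshold (adjusted p = 0.0545). Without D21 depleted rat 4, the count rose from 3 to 8, with Il17rb, Il17re, Il18bp, Il24 and Il6 added, and without D21 whole rat 5 it was 5. Il24 and Il6 were well above background on 2 D21 depleted and 0 D21 whole arrays. With the filter in place, they were therefore tested only when depleted rat 4 was left out, and passed it through the group in which they were high. No slide held both D21 groups. Among arrays scanned on the third day, which left depleted rat 4 alone against the 3 whole rats, the differences were 3.51 for Il21r, 0.56 for Il16 and -1.22 for Il22ra2. In the fit with slide as a block, which could separate the D21 groups only through the other arrays, Il21r (1.75), Il16 (0.38) and Il22ra2 (-1.24) no longer passed. With normexp background correction, Il21r (0.48) and Il16 (0.89) did not pass.

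Both depletions were set side by side, and whether they differed was tested in limma as the difference of the differences (D21 whole minus depleted, minus NP whole minus depleted). No member of the 33 tested passed an adjusted p of 0.05, beside 2.39% of all genes. At an unadjusted p below 0.05 there were 9, beside 18.8% of all genes. The smallest adjusted p-values were those of Il17d (-1.59 ± 0.39, adjusted p = 0.0620), Il11ra1 (-2.00 ± 0.51, adjusted p = 0.0716) and Il13ra2 (-4.69 ± 1.47, adjusted p = 0.121). Il11ra1 was 1.25, 0.91 and 1.31 in D21 whole and 0.90, 1.37 and -0.09 in D21 depleted cervix, which overlapped, in contrast to the NP groups. Il17d was 1.39, 2.14 and 1.55 in D21 whole and 0.60, 0.99 and 0.82 in D21 depleted cervix, a difference of 0.89 (adjusted p = 0.0407), beside 2.48 in NP cervix. Il13ra2 was 2.82, 0.73 and 2.56 in D21 whole and 0.97, 1.97 and -2.52 in D21 depleted cervix, a difference of 1.90 ± 1.03 (adjusted p = 0.195), beside 6.59 in NP cervix. Without D21 depleted rat 4, whose Il13ra2 was far below that of rats 1 and 2, 5 members passed (Il11ra1, Il13ra2, Il17d, Il20rb and Il2rg).

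**Figure D4:**
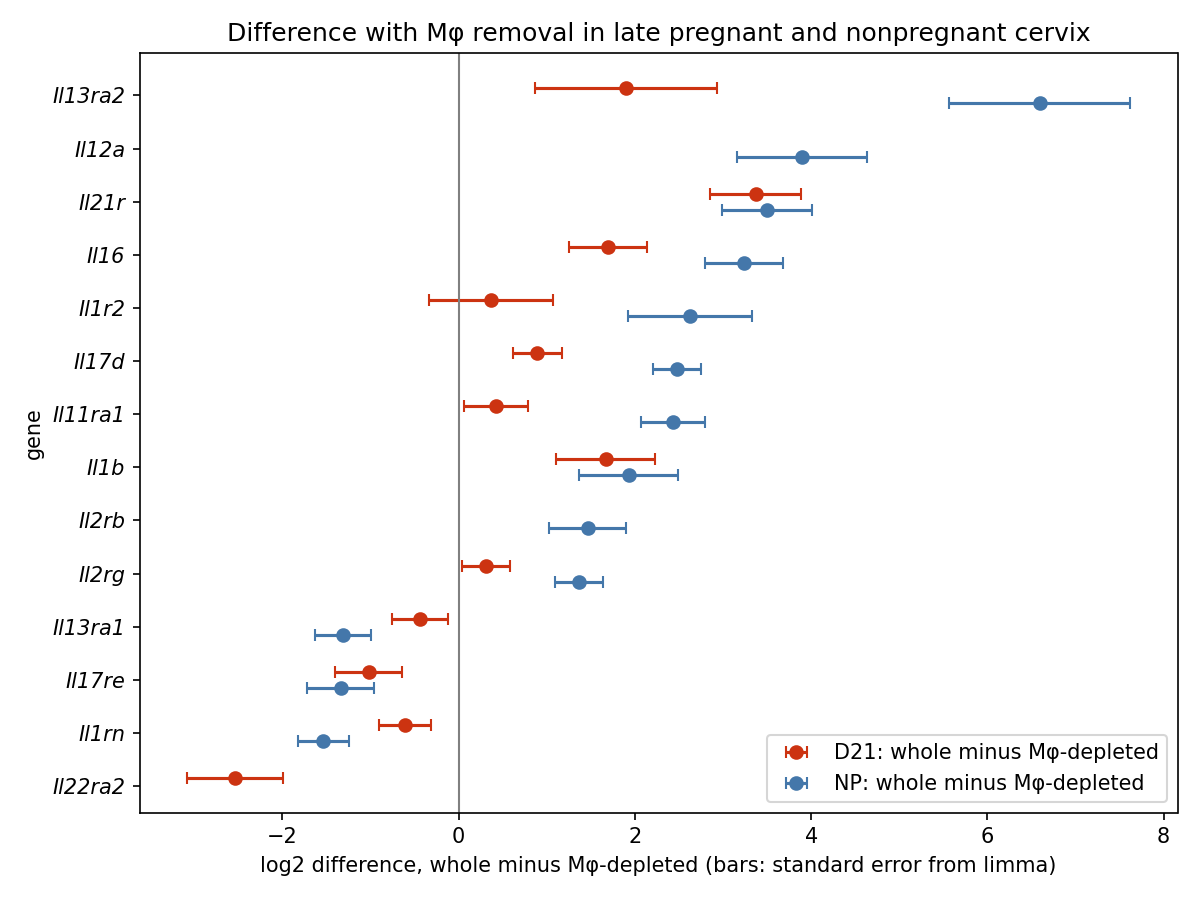
Log2 difference between whole and Mφ-depleted cervix (horizontal axis, points with SE from limma) in D21 and NP rats for the 14 genes called in at least 1 of the comparisons. Il21r and Il16 lie to the right of 0 in both, Il13ra2, Il11ra1 and Il17d lie further right in NP (6.59, 2.43 and 2.48) than in D21 cervix, and a missing point is a gene not tested in that comparison.

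Several marker lists moved with Mφ removal. Of the Mφ markers, 11 of 14 tested were higher in whole cervix in D21 (median 4.62) and 10 of 12 in NP (median 5.09), and Adgre1 and Mrc1 were well above background on 0 depleted arrays. Their summed log2 level was 6.36 to 6.55 in D21 whole, 6.20 to 6.84 in NP whole, 3.45 to 3.97 in D21 depleted and 2.35 to 3.94 in NP depleted cervix. Cd68, which encodes the ED1 antigen, averaged 0.74 in whole and 0.89 in depleted D21 cervix and 0.16 and -0.39 in NP cervix, and was not called. The fibroblast markers were higher in whole cervix for 4 of 10 in D21 and 10 of 10 in NP, with summed levels of 8.82 to 9.40, 9.16 to 9.43, 8.35 to 8.93 and 4.16 to 5.93 in D21 whole, NP whole, D21 depleted and NP depleted cervix. The smooth muscle markers were higher in whole cervix for 7 of 10 in D21 and 10 of 10 in NP, with levels of 8.27 to 8.74, 8.84 to 9.50, 5.61 to 7.33 and 4.53 to 5.06. Immediate-early genes were higher after depletion, 11 of 13 in D21 and 10 of 11 in NP, with levels of 4.92 to 5.01, 3.88 to 4.33, 7.14 to 7.27 and 6.13 to 6.94. None of the epithelial markers was higher in NP whole than in NP depleted cervix and 5 of 9 were lower. In D21 cervix, 1 of 9 was higher in whole cells and 3 were lower. Epithelial levels were 8.94 to 9.37 in D21 depleted and 8.75 to 9.84 in NP depleted cervix. Some markers of other leukocytes were also higher in whole cervix. Of the T and NK cell markers, 2 of 6 tested in D21 and 2 of 4 in NP cervix were higher. Their levels were 1.02 to 1.12 in D21 whole, 0.99 to 1.38 in NP whole, -1.37 to -1.02 in D21 depleted and -1.44 to 0.03 in NP depleted cervix. Of the neutrophil markers, 1 of 3 was higher in D21 and 1 of 3 in NP cervix, with levels of -0.13 to 0.54, 0.81 to 1.66, -1.57 to -0.76 and -1.09 to 2.75 in the same order. The 1 B cell marker tested in D21 was not called, and 0 were tested in NP cervix. B cell levels overlapped (-3.18 to -2.53, -3.50 to -2.50, -3.49 to -2.73 and -4.21 to -2.49). Of the mast cell markers, 4 of 6 in D21 and 3 of 5 in NP were higher in whole cervix and 1 was lower in NP, with levels of 1.78 to 1.92, 0.99 to 1.79, 1.07 to 1.66 and 0.94 to 1.45 in the same order. Of the endothelial markers, 5 of 10 in D21 and 3 of 9 in NP were higher in whole cervix and 1 was lower in NP, with levels of 3.76 to 3.91, 3.34 to 3.94, 3.19 to 4.16 and 3.18 to 3.50. The part of these cells, and of the added handling, in the interleukin results was not tested. The mean levels of Il13ra2, Il11ra1 and Il17d were lowest in NP depleted cervix. So were those of the fibroblast and smooth muscle lists (5.12 and 4.74, beside 8.55 and 6.39 in D21 depleted cervix). The Mφ, mast cell and endothelial means were also lowest there, but their ranges overlapped those of D21 depleted cervix. The T and NK cell, neutrophil and B cell lists were lowest in D21 depleted cervix, and the epithelial and immediate-early lists in NP whole cervix. Il21r was not well above background in either depleted group.

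Between D21 and NP depleted cervix, 8 of 28 tested genes were higher in D21 and 0 were lower, beside 5.45% and 2.07% of all genes and 7.52% in either direction. They were the ligands Il11, Il18 and Il17d, the decoys and soluble receptor Il13ra2, Il1r2 and Il22ra2, and the receptor genes Il1rl1 and Il11ra1. All but Il22ra2 and Il11ra1 passed adjustment at 0.05, as did 4.6% of all genes. The median difference was 0.43, beside 0.02 for all genes. The groups did not overlap for 9 of the 28, and for 17% of all genes. This comparison shares its samples with both depletion comparisons, so the lists are not independent of each other.

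Il11 was -1.14, -2.06 and -1.90 in D21 depleted and -3.07, -3.74 and -2.99 in NP depleted cervix. The groups did not overlap, as in whole cervix (1.56 ± 0.31, 2.96-fold, adjusted p = 0.0164). Il18 was 1.83, -0.24 and -0.57 in D21 and -2.27, -1.84 and -2.89 in NP depleted cervix. D21 rat 1 stood above the other D21 rats, and all 3 lay above the NP rats (2.68 ± 0.56, 6.40-fold, adjusted p = 0.0214). For Il11 and for Il18, 2 of the 3 NP depleted arrays were well above background. The variant 1 probe of Il1rl1 was -3.60, -3.39 and -2.93 in D21 and -6.82, -6.99 and -4.54 in NP depleted cervix, where no array was well above background. The D21 level was at least 2.22-fold higher (2.81 ± 0.62, adjusted p = 0.0270), although the mean of both probes was 1.13 higher and did not pass.

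Il13ra2, at the depleted levels given above, was 23.1-fold higher in D21 (4.53 ± 1.03, adjusted p = 0.0307). Its D21 depleted rats ran from -2.52 to 1.97, and the lowest of them was still above all NP depleted rats. Il1r2 was 0.48, -0.06 and -1.43 in D21 and, as above, lower in every NP depleted rat (3.40 ± 0.70, 10.5-fold, adjusted p = 0.0198). The folds of Il13ra2 and Il1r2 are imprecise, since 2 of the 3 NP depleted arrays were well above background for each. Il22ra2 was -3.98, -3.25 and -2.75 in NP depleted cervix, against -0.81, -0.30 and -2.53 in D21 depleted cervix (2.12 ± 0.54, adjusted p = 0.0510). Il17d was 1.28 ± 0.27 higher in D21 (adjusted p = 0.0229), and Il11ra1 was 1.13 ± 0.36 higher, with overlapping groups (adjusted p = 0.108).

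On leaving out 1 rat, Il11ra1 failed in 4 of 6 fits (0.81 to 1.10) and Il22ra2 in 3 (1.66 to 1.91). On slide 1, which held D21 depleted rat 2 and NP depleted rats 5 and 6, the differences were 6.25 for Il13ra2, 2.94 for Il1r2, 3.52 for Il1rl1, 1.82 for Il18, 3.32 for Il22ra2, 1.34 for Il11, 1.42 for Il17d and 1.59 for Il11ra1. On slide 3, with 1 rat of each group, they were 2.09, 3.77, 1.61, 2.32, 0.22, 1.09, 1.39 and 0.68 in the same order. Only for Il11ra1, whose groups overlapped, could the sign have changed, and it did not. Il22ra2 was close to 0 on slide 3 and lost its call with slide as a block (1.99). The fibroblast markers were also higher in D21 than in NP depleted cervix (9 of 10, median 3.00), as were 5 of 8 smooth muscle markers and 6 of 13 immediate-early genes at the levels given above, and the part of these lists in the differences was not tested. With normexp background correction, the calls of Il11 (1.24), Il1rl1 (1.48), Il17d (0.94) and Il11ra1 (0.93) were lost. When the 75th percentile was taken only over probes well above background on all arrays, the median of all genes moved from 0.02 to -0.14 in this comparison and from -0.06 to 0.13 in the depletion of D21 cervix.

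Set across both comparisons, the members called in whole cervix differed in pattern. Il11 and Il18 were higher in D21 than in NP cervix both with and without Mφs, and so was the variant 1 probe of Il1rl1. In whole cervix, only Il11 of these genes passed adjustment at 0.05. The differences of these genes between whole and depleted cervix did not pass in D21 rats. Il16 and Il21r were lower after depletion in both D21 and NP rats. Il20rb was -1.77, -2.17 and 0.29 in D21 depleted and -0.50, -2.41 and -0.28 in NP depleted cervix, which overlapped, so the gap seen in whole cervix was not seen there. The test of the difference of differences gave 3.06 for Il20rb and did not pass after adjustment. For Il17re, the depleted rats gave 1.92, 1.77 and 0.57 in D21 and 0.33, 0.20 and 0.64 in NP cervix, which also overlapped. Il2rb was -5.38, -3.50 and -4.77 in D21 depleted and -4.22, -3.48 and -4.53 in NP depleted cervix, and Il12a was -7.31, -6.67 and -4.94 in D21 depleted cervix, not well above background on any of them, so neither was tested between these groups.

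Other well known members passed no threshold or could not be tested. Il6, the prototype gp130 cytokine, was not well above background on any of the 6 whole arrays, with values from -6.40 to -4.93, and was rated so on 2 of 3 depleted arrays of each of the D21 and NP groups, with values from -4.81 to -4.25. It was therefore not tested with all rats included and the filter in place. The shared signal chain Il6st was well above background on no array, Il1r1 and Il10 on 1 array each, Il1rap on 2 and Il10ra on 3, so nothing can be said of their change. Il6r averaged -1.19 ± 0.12 in D21 whole, -1.43 ± 0.48 in NP whole, -0.71 ± 0.03 in D21 depleted and -1.42 ± 0.52 in NP depleted cervix (SD, n = 3) and was not called.

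Il33, the ligand of Il1rl1, averaged 4.05 ± 0.75 in D21 whole, 3.50 ± 0.98 in NP whole, 4.35 ± 0.26 in D21 depleted and 4.35 ± 0.37 in NP depleted cervix (SD, n = 3). The groups overlapped, and the difference between D21 and NP whole cervix was 0.55 ± 0.48 (SE; adjusted p = 0.530). Il34 was 1.53 ± 0.21, 0.27 ± 0.59, 2.06 ± 0.90 and 0.67 ± 0.69 in the same order. Its differences between D21 and NP were 1.26 ± 0.48 in whole cervix (SE, adjusted p = 0.148) and 1.40 ± 0.48 in depleted cervix (adjusted p = 0.126), and neither passed. Il1b was -3.11 ± 0.26 in D21 and -1.94 ± 0.66 in NP whole cervix (SD, n = 3), and this difference (-1.17 ± 0.56, SE, adjusted p = 0.245) did not pass either. The soluble inhibitor Il18bp was 0.87 ± 0.29 higher in whole than in depleted D21 cervix (SE, adjusted p = 0.0550), short of 2-fold.

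The IL-36 genes, IL-1 family members of squamous epithelium, varied widely among the rats with NP whole cervix. Il36a was -1.67, -5.92 and 1.20, Il36g was -0.45, -5.90 and 0.23, and Il36b was 0.44, -3.40 and 1.51 in NP rats 8, 9 and 10. The antagonist Il36rn was -0.26, -4.11 and -0.63 in the same rats. Rat 9 was thus low for all 4 genes, and rats 8 and 10 were high. In D21 whole cervix, Il36a ran from -6.55 to -6.15 and Il36g from -6.56 to -6.20, with none of the 3 arrays well above background, while Il36b was -5.42, -2.03 and -4.15 and Il36rn -4.58, -1.66 and -2.87. The difference of Il36b between D21 and NP whole cervix was -3.38 ± 1.26 in log2 units, which did not pass (adjusted p = 0.142), and Il36a, Il36g and Il36rn were not tested because 2 of 3 arrays at most were well above background in each group. Without NP rat 9, the difference of Il36b was -4.84 (adjusted p = 0.0268) and that of Il36rn -2.59 (adjusted p = 0.151). These values are a description, since the rat was singled out after its low values were seen, and no difference is given for Il36a and Il36g, which no D21 whole array measured.

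**Figure D5:**
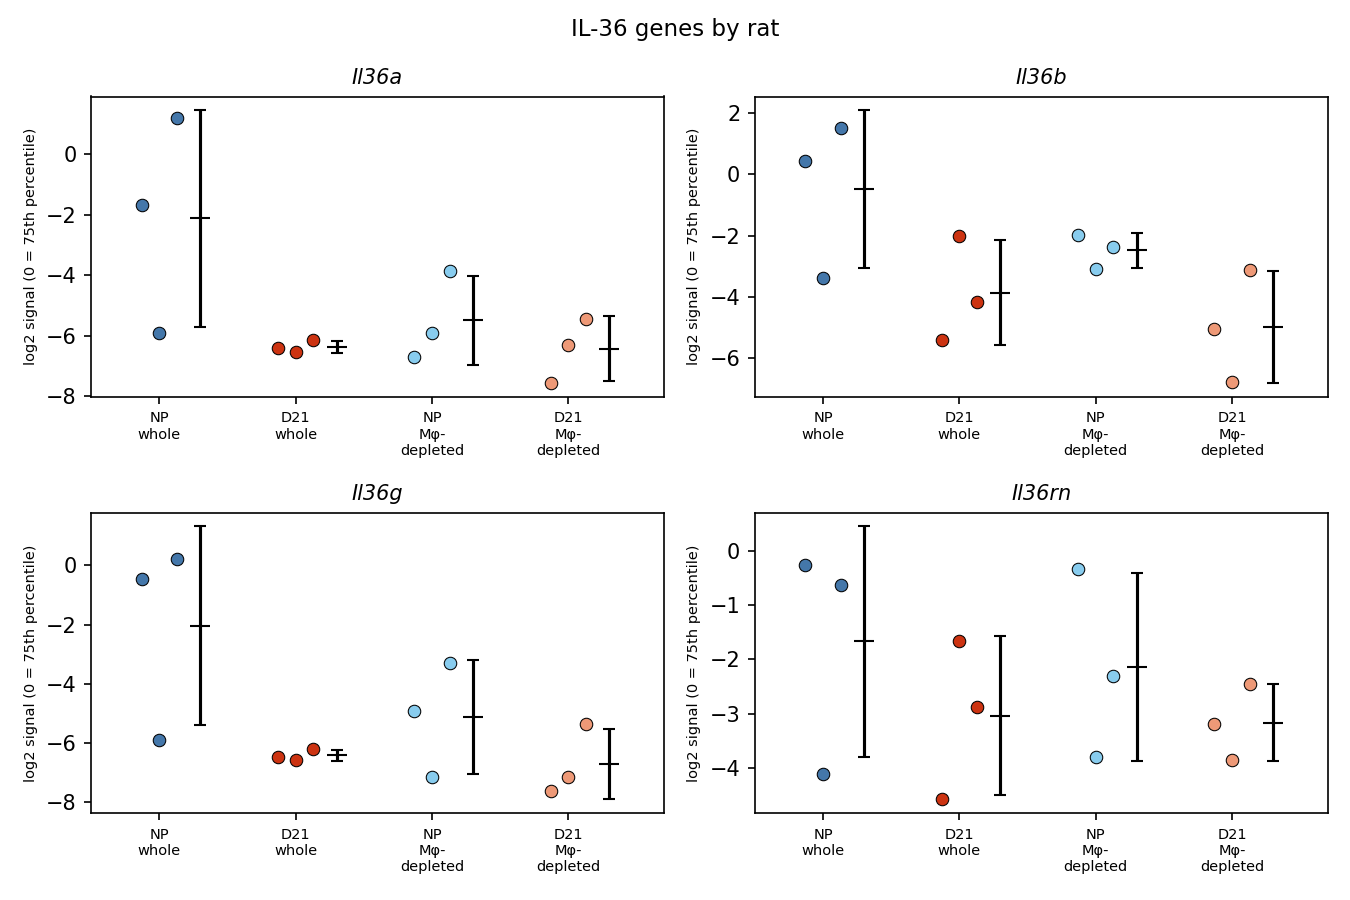
Log2 signal (vertical axis, 0 = 75th percentile of the array) of Il36a, Il36b, Il36g and Il36rn by group. Each point is 1 rat, and the bar beside the points is the mean with SD (n = 3). In NP whole cervix, rat 9 lies far below rats 8 and 10 in every panel, for example at -5.92 against -1.67 and 1.20 for Il36a.

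Genes through which interleukins act were described from fixed lists of inflammasome, adaptor, Janus kinase, STAT, SOCS and related cytokine genes. Between D21 and NP whole cervix, 2 of 36 tested were higher and 0 lower, beside 5.38% and 3.1% of all genes, namely Sigirr, a negative regulator of IL-1 receptor signals (1.09), and Cish, a STAT-induced feedback inhibitor (1.67). In D21 cervix, whole cells had higher levels of 6 of 36 and lower levels of 3, beside 10% and 7.71% of all genes. Casp1, which processes IL-1β and IL-18, was 1.35 higher, Jak1 1.33, Socs2 1.17, Stat6 1.14, Ebi3, a partner chain of p35, 1.11 and Irak1 1.11. Clcf1 and Ctf1, which are gp130 cytokines, were lower in whole cells (-1.20 and -1.14), as was Traf6 (-1.20). In NP cervix, 4 of 35 were higher and 5 lower, beside 13.6% and 10.8% of all genes. Casp1 was again higher (1.38), with Socs1 (1.62), Socs2 (2.69) and Socs7 (5.11), while Clcf1 (-1.81), Ctf1 (-1.88), Socs3 (-1.77), Cish (-2.23) and Csf3 (-1.44) were lower. Between D21 and NP depleted cervix, 3 of 34 were higher (Socs2 1.80, Crlf2 1.04 and Sigirr 1.01) and 1 was lower (Irak1 -1.28), beside 5.45% and 2.07% of all genes.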

How the data were processed

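The authors deposited scanner intensity values (Feature Extraction 9.5.3.1, background subtracted, small signals replaced by a surrogate, not normalized between arrays). They also deposited a table of ratio values, intensity over the array's own 75th percentile, which was used as an alternative. Outlier and control spots were left out, spots of a probe were averaged, and log2 intensity minus the log2 75th percentile was used. Of the 84 member probes, 72 were named by RefSeq accession (17328 of all 30367 probes) and the rest by the files. A gene stood for its brightest probe.

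All 12 arrays were fitted in limma 3.58.1 under R 4.3.3 (lmFit then eBayes, 1 mean per group), and the step was tested on simulated data. Calls follow the threshold in the study's methods (unadjusted p below 0.01 and at least 2-fold). Differences between depletions were called at an adjusted p below 0.05. Figures used Python 3.11.15. Members and lists were chosen with earlier results of these data known, and 1 gene of the pathway lists is not reported here. Genes named were those called in any comparison and a set of central IL-1, IL-6, IL-10 and Mφ-related members. The number of arrays limits the precision. The alternatives were normalization, background correction, filter, probe summary, array weights, slide and scan day, the methods' test and leaving out each rat.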

Additional observations from a re-analysis of the deposited data

Results flagged for a closer look

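The difference with Mφ depletion was compared between D21 and NP cervix for each member, and the unadjusted p-value was below 0.01 for 3 genes. The difference of differences (D21 minus NP, in log2 units) was -1.59 for Il17d (limma, adjusted p = 0.0620), -2.00 for Il11ra1 (adjusted p = 0.0716) and -4.69 for Il13ra2 (adjusted p = 0.121). None passed after adjustment. All 3 were NP whole minus depleted differences larger than those of D21 cervix.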

How the results depend on the processing

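No paired analysis was possible because the groups compared held different rats and shared no rat numbers. Of the values of single called genes under the alternatives, 484 kept their direction and call, 147 kept their direction only, and 0 changed sign. The signs say little, because only genes already called were followed and some alternatives reuse the same difference. In addition, the groups of all these genes but Il11ra1 between depleted groups did not overlap, so leaving out a rat could not change the sign. Counts of called members also moved. In D21 against NP whole cervix the count of 7 became 2 with normexp, 2 where every array had to be well above background, 11 with array weights, 4 (1 higher, 3 lower) with slide as a block and 2 by adjusted p alone. It was 3 to 8 on leaving out 1 rat. In the depletion of D21 cervix the count of 3 became 5 with the percentile over detected probes, 6 without a filter, 1 with every array well above background, 5 with array weights, 1 with slide as a block and 5 by adjusted p alone, and 2 to 8 on leaving out 1 rat (8 without D21 depleted rat 4). In the depletion of NP cervix, 13 became 8 with normexp and 6 with every array well above background, and 10 to 16 on leaving out 1 rat. Between depleted groups, 8 became 4 with normexp and 2 with every array well above background, and 6 to 11 on leaving out 1 rat. The 0 genes whose depletion differences differed became 6 with array weights, whose fit did not converge for all genes, 2 with scan day as a block, and 0 to 5 on leaving out 1 rat. The cause was not tested, except that the stricter filter tested fewer genes. Without D21 depleted rat 4, 33 rather than 30 members were tested in the depletion of D21 cervix.

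The methods' t-test called 1, 1, 6 and 1 members in these 4 comparisons, and 0, 0, 3 and 0 after Benjamini-Hochberg adjustment.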
